A study of Mus musculus with 6 samples.

Results

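Tuft cells are rare chemosensory epithelial cells of the airway, gut and other mucosae, and the tuft genes described here are markers of these cells and of the POU2F3 subtype of small cell lung cancer. The list named 8 genes: Pou2f3, Gfi1b, Trpm5, Chat, Ptgs1, Alox5ap, Dclk1 and Avil. Each was represented by the brightest probe set that carried its symbol alone, by the mean over all arrays. This gave 7 measured genes among 22180 in the table. Ptgs1, which encodes cyclooxygenase 1, was paired with no probe set in the platform annotation and was not analysed here.

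The cells were KP1, a small cell lung cancer line derived from a mouse model in which Rb, p53 and p130 are all knocked out, so both groups carry the 3 deletions. Control cells received an ires-GFP vector with no insert (3 arrays), and N1ICD cells received the Notch1 intracellular domain followed by ires-GFP (3 arrays). In both groups GFP-positive cells were sorted 48 hours after transfection, and total RNA was hybridised to Affymetrix Mouse Gene 2.0 ST arrays. All samples come from 1 cell line, and the labels call those of a group biological replicates without saying whether they were separate cultures. The p-values weigh the difference between the groups against the spread of these samples within a group. The number of arrays limits the precision.

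As background, POU2F3 is the transcription factor required for tuft cells to form. Mature tuft cells detect luminal compounds through G protein-coupled receptors and the cation channel TRPM5, and answer with acetylcholine, leukotrienes, prostaglandins and interleukin 25. Among small cell lung cancers, those that express POU2F3 and other tuft genes form a subtype set apart from neuroendocrine tumours. Notch signalling opposes neuroendocrine differentiation in the airway.

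The values are expression after RMA, the authors' normalisation; their log base is not stated in the sources used here and was taken as 2, RMA's own, on which every fold below rests. Notch1 was higher in N1ICD, at 6.17 ± 0.19 in control and 7.76 ± 0.29 in N1ICD (mean ± SD, 3 arrays each), and its groups did not overlap. The median of all genes lay between 6.14 and 6.24 on the 6 arrays. The 6 neuroendocrine markers measured lay in control between 8.47 (Syp) and 11.8 (Chga), above the median of every array. In control, 6 of the 7 tuft genes lay below the median of every array, and Dclk1 alone lay above it. Probe sets differ in how brightly they report a transcript and background was not measured, so these positions describe the arrays and do not say whether a dim gene was expressed.

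The comparison of N1ICD with control reads the tuft genes after Notch1 was made active in a neuroendocrine tumour line. Dclk1, a microtubule-associated kinase, rose 2.45-fold. None of the other 6 measured tuft genes passed the test, which was an adjusted p under 0.05 in limma with Benjamini-Hochberg adjustment across the whole gene table. Thus 1 of 7 rose and 0 fell (2 higher and 0 lower at an unadjusted p under 0.05), where 7.10% of all genes changed, 3.82% higher and 3.27% lower. With the arrays set to equal medians the split over all genes turned from 848 higher and 726 lower to 730 higher and 948 lower. The median change of the 7 genes was 0.07 on the log2 scale, against -0.02 over all genes. The groups did not overlap for 2 of the 7, Dclk1 and Gfi1b, both higher in N1ICD, where 26.1% of all genes had groups that did not overlap in either direction.

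**Figure D1:**
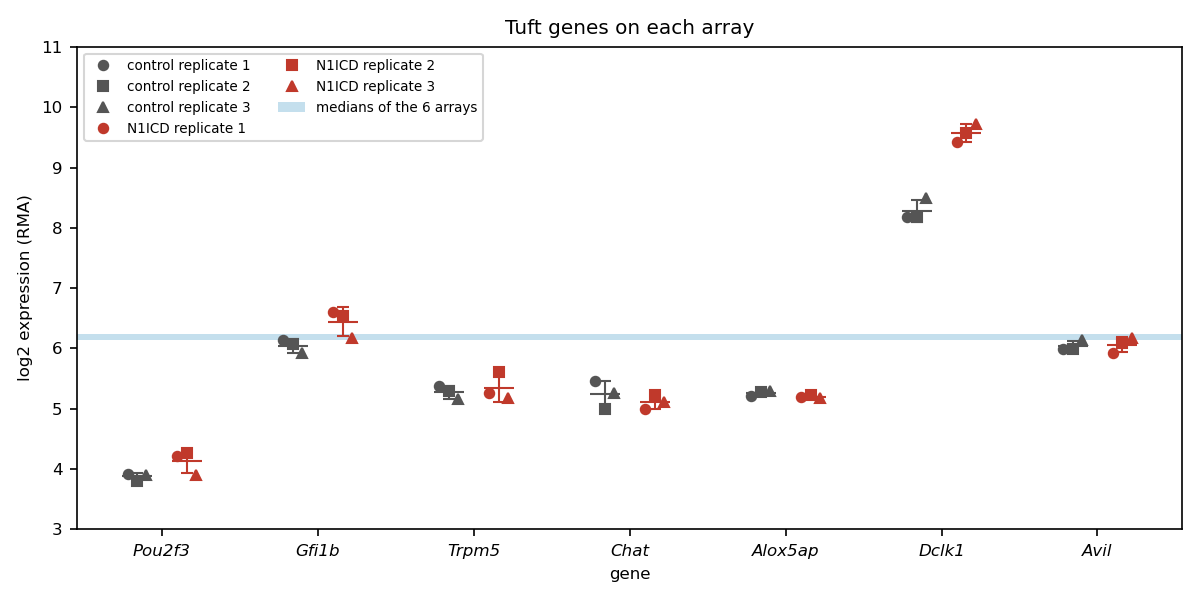
Log2 expression (RMA) of the 7 measured tuft genes on each array; points are arrays, horizontal bars group means with SD over 3 arrays, and the blue band holds the medians of all genes on the 6 arrays. Dclk1 sits between 8.18 and 8.49 in control and between 9.42 and 9.73 in N1ICD, while the other genes lie at or below the band in control.

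The master regulator Pou2f3 was the dimmest of the list. Its log2 expression was 3.92, 3.80 and 3.90 in control replicates 1, 2 and 3 and 4.21, 4.27 and 3.90 in N1ICD replicates 1, 2 and 3. N1ICD replicates 1 and 2 lay above all control arrays, but N1ICD replicate 3 lay among them. The change was 0.25 ± 0.12 (SE; 95% confidence interval -0.03 to 0.53; limma adjusted p = 0.304). With N1ICD replicate 3 left out it was 0.36, with an adjusted p of 0.106.

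Gfi1b, a zinc finger repressor of blood lineages that is also a tuft cell factor, read 6.14, 6.08 and 5.92 in the control replicates and 6.61, 6.54 and 6.17 in the N1ICD replicates. Every N1ICD array was above every control array, although N1ICD replicate 3 exceeded control replicate 1 only slightly. The change of 0.40 ± 0.14 did not pass the test (95% confidence interval 0.08 to 0.71; limma adjusted p = 0.148). It did pass without N1ICD replicate 3, at 0.53 with an adjusted p of 0.0472, and in none of the other 13 alternatives. An exact permutation test over all 20 ways to assign the arrays gave a two-sided p of 0.1, the lowest value possible with 3 arrays a group.

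Trpm5, the calcium-activated channel that depolarises tuft and taste cells, had 5.37, 5.28 and 5.15 in control and 5.26, 5.60 and 5.17 in N1ICD. The groups overlapped, and N1ICD replicate 2 was the highest of the 6 arrays. The change was 0.07 ± 0.13 (95% confidence interval -0.23 to 0.38; limma adjusted p = 0.832) and turned to -0.057 without N1ICD replicate 2.

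The effector genes showed no call. Chat, the enzyme that makes acetylcholine, read 5.45, 5.00 and 5.26 in control and 4.99, 5.22 and 5.11 in N1ICD, with overlapping groups and a change of -0.13 ± 0.13 (95% confidence interval -0.44 to 0.18; limma adjusted p = 0.668). Alox5ap, which presents arachidonic acid to 5-lipoxygenase for leukotriene synthesis, read 5.21, 5.27 and 5.29 in control and 5.19, 5.22 and 5.17 in N1ICD. Its arrays were the tightest of the list (SD 0.039 in control and 0.026 in N1ICD), and its groups overlapped. The change of -0.07 ± 0.09 did not pass (95% confidence interval -0.27 to 0.13; limma adjusted p = 0.749). A second, dimmer probe set for Alox5ap changed by -0.17 ± 0.18 and did not pass either.

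Avil, which encodes advillin, an actin-bundling protein of the tuft cell's apical bristles and of sensory neurons, read 5.99, 5.99 and 6.13 in control and 5.92, 6.09 and 6.17 in N1ICD. The groups interleaved. The change was 0.02 ± 0.10 (95% confidence interval -0.22 to 0.26; limma adjusted p = 0.94), and its sign turned under a second quantile normalisation (-0.039) and under equal array medians (-0.031).

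Dclk1 combines doublecortin domains that bind microtubules with a kinase domain; it marks tuft cells and is also made by neurons. It read 8.18, 8.18 and 8.49 in control replicates 1, 2 and 3 and 9.42, 9.58 and 9.73 in N1ICD replicates 1, 2 and 3. The lowest N1ICD array lay well above the highest control array. The change was 1.29 ± 0.13 on the log2 scale (95% confidence interval 1.00 to 1.59; limma adjusted p = 0.00071), with an exact two-sided permutation p of 0.1, the smallest the design allows. It ranked as number 235 in size among the 848 genes that rose. Dclk1 was called in each of the 14 alternatives, where the change lay between 1.21 and 1.40 and the adjusted p reached 0.00653 at most.

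RefSeq lists promoter windows for Dclk1 at 2 start sites (build GRCm38.p6), each from 250 bases before to 50 after the start. They are printed because Dclk1 carries the only call among the tuft genes and because the array gives 1 value for the gene: the exons its probe set covers are not given in the sources used here, and the values do not tell transcripts from these starts apart. Capitals mark TGGGAA, the core letters of the motif of RBPJ, the DNA-binding partner of the Notch1 intracellular domain.
Dclk1 upstream start, chr3:55242114-55242413, + strand: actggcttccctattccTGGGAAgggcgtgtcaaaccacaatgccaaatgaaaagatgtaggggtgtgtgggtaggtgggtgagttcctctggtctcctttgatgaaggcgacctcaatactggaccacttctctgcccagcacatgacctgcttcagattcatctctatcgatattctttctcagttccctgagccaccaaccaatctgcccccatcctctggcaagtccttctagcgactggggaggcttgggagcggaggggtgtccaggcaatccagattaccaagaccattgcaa
Dclk1 downstream start, chr3:55461478-55461777, + strand: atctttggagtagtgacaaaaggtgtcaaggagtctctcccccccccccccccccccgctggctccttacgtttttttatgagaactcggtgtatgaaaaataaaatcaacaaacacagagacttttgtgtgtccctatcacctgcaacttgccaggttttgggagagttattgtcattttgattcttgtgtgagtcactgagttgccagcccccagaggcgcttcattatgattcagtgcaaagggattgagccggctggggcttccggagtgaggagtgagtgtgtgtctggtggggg
TGGGAA was searched on both strands. It occurs once in the upstream window, from base 18, and not in the downstream one; 25.6% of all 32851 windows of this length hold it. The windows of Gfi1b, Trpm5, Chat and Avil hold no TGGGAA. The octamer ATGCAAAT, bound by POU2F factors and also searched on both strands (no match overlapped another), occurs in none of these windows and in 1.74% of all windows. A match or its absence in 300 bases describes the letters only.

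Of 16 measured relatives of the tuft genes, 1 rose, 2 fell and 13 did not pass, which is 18.8% called against 7.10% of all genes. The count was 2 with the replicate block and without control replicate 2, control replicate 3 or any 1 N1ICD array. With dim genes left out it was 4 of the 12 relatives still tested, where 17.4% of all genes were called. It was 4 of 16 with an intensity trend and robust eBayes in limma and with array weights. In those 2 fits 10.3% and 8.39% of all genes were called. In the doublecortin family Dclk2, a sister kinase, fell by 0.47 on the log2 scale (from 9.81 ± 0.10 to 9.35 ± 0.11; limma adjusted p = 0.0351), a call lost without each of the 6 arrays in turn (adjusted p up to 0.131). The call of Dclk2 was also lost with all probe sets tested (limma adjusted p = 0.113). Dclk3 (-0.23 ± 0.11) and Dcx (-0.43 ± 0.42), the neuronal doublecortin, did not pass. Dcx varied most within its groups, with 8.29, 9.05 and 9.60 in control and 7.72, 8.64 and 9.30 in N1ICD. Set against these relatives array by array, the change of Dclk1 exceeded that of Dclk2 by 1.76, that of Dcx by 1.72 and that of Dclk3 by 1.52. These 3 differences share the values of Dclk1.

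Gfi1, the sister repressor of Gfi1b, fell by 1.52 ± 0.24 on the log2 scale (limma adjusted p = 0.00842). It read 8.98, 8.83 and 8.76 in control and 7.65, 6.70 and 7.67 in N1ICD, so every N1ICD array was lower, N1ICD replicate 2 most. The call held without any 1 array (adjusted p up to 0.0303). The change of Gfi1b exceeded that of Gfi1 by 1.91.

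In the villin and gelsolin family of actin regulators, Gsn, the actin-severing protein gelsolin, rose 3.21-fold (1.68 ± 0.14, limma adjusted p = 0.000221), and this call too held without any 1 array. Avil, Vil1 (-0.38 ± 0.13), Svil (-0.47 ± 0.12), Vill (0.28), Scin (0.03), Capg (-0.06) and Flii (0.26) did not pass. Svil had an adjusted p of 0.0628 and was called lower in 4 alternatives: with dim genes left out (0.0233), with an intensity trend and robust eBayes in limma (0.0155), with array weights (0.0367) and without control replicate 1 (0.0435). The change of Avil minus that of Gsn was -1.66.

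Elsewhere Pou2f2 (-0.22 ± 0.15), the lymphoid relative of Pou2f3, did not pass, nor did Trpm4 (0.28 ± 0.10), the sister channel of Trpm5. The inducible cyclooxygenase Ptgs2 had -0.05 ± 0.10, and Mgst2 and Mgst3, which belong to the same membrane protein family as Alox5ap, had 0.50 ± 0.16 and -0.03 ± 0.12. Pou2f1 was not analysed here. Over 10 such pairs of a tuft gene and a relative, the lowest exact two-sided permutation p of an array-by-array difference was 0.1, the smallest possible, and 0.125 after adjustment over the pairs, which were set after the values were seen.

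**Figure D2:**
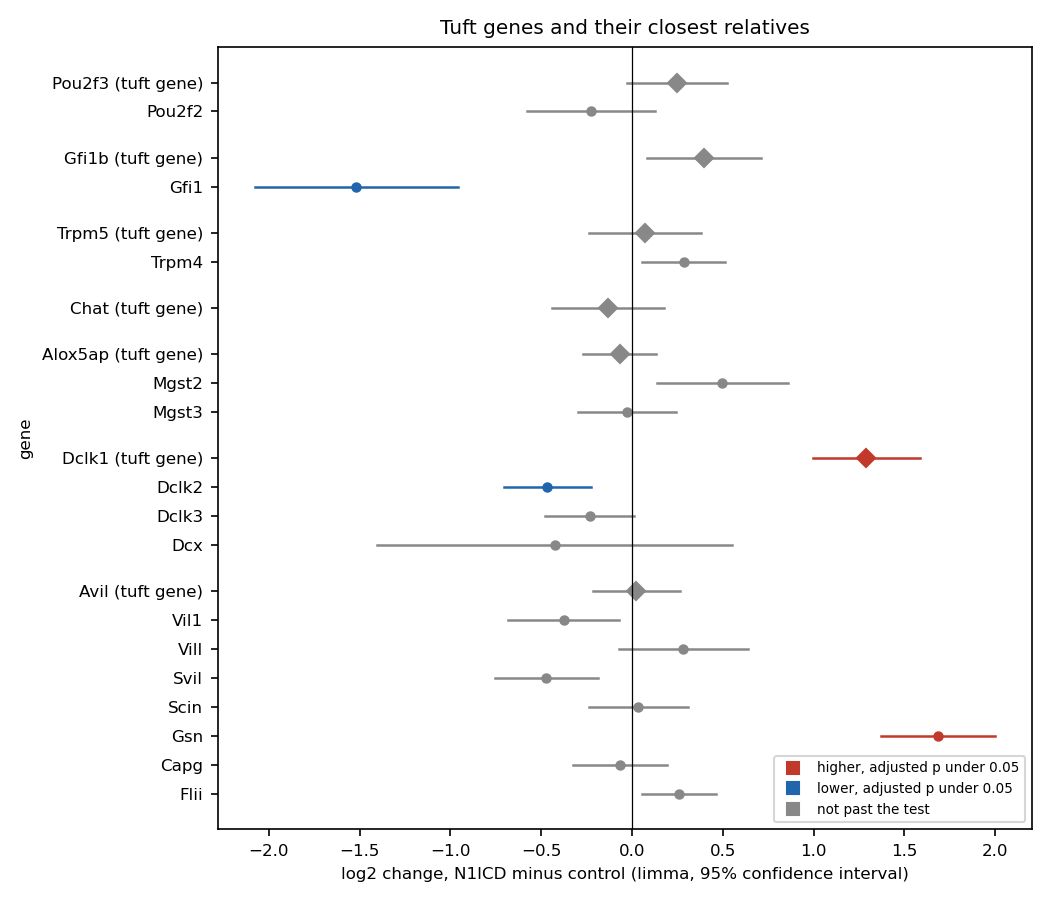
Log2 change, N1ICD minus control, with its 95% confidence interval from limma, for the tuft genes (diamonds) and their relatives (circles) by family. Ptgs2, the relative of the unmeasured Ptgs1, is not drawn. Red and blue mark genes higher and lower at an adjusted p under 0.05. Dclk1 (1.29) and Gsn (1.68) stand to the right, Gfi1 (-1.52) and Dclk2 (-0.47) to the left.

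Beyond the 8 genes, 74 other genes of tuft cell biology in 6 lists were read from the same fit, of which 69 were measured. In all 5 rose, 3 fell and 61 did not pass, which is 11.6% called against 7.10% of all genes, and their median change was -0.02. The count fell to 5 of 69 (7.25%) in each fit without control replicate 2, control replicate 3 or 1 of the N1ICD arrays, fits in which 3.71% to 5.55% of all genes were called. The groups did not overlap for 18 of the 69, or 26.1%, the same share as over all genes. Among 8 measured transcription factors and coactivators, 2 rose and 1 fell. Runx1, a Runt family factor, rose 5.47-fold, from 5.54, 5.66 and 5.72 in control to 8.04, 8.17 and 8.06 in N1ICD (limma adjusted p = 3.9e-06). Sox9, a progenitor factor and known Notch target, rose 3.20-fold (1.68 ± 0.20, adjusted p = 0.00199), and Myb, a factor of proliferating progenitors, fell by 1.19 ± 0.15 on the log2 scale (adjusted p = 0.00222). Calls of these 3 genes held without any 1 array. Ascl2 (-0.11 ± 0.15), Spib (-0.37 ± 0.19), Hmx2 (0.03), Hmx3 (0.04) and Pou2af1 (-0.04) did not pass. The POU2F3 coactivators Pou2af2 and Pou2af3 were not analysed here.

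Of 18 measured genes of taste transduction and tuft cell receptors, 0 rose, 1 fell and 17 did not pass in limma (0 higher and 1 lower at an unadjusted p under 0.05), with changes from -0.48 to 0.25. Over all genes 3.82% rose and 3.27% fell. The one called, Rgs13, which shortens G protein signals, was dim (3.59 in control and 3.11 in N1ICD; limma adjusted p = 0.0458) and was not called in any fit that left out 1 of the 6 arrays (adjusted p up to 0.16). The taste G protein Gnat3 (-0.22 ± 0.18) and the phospholipase Plcb2 (0.03 ± 0.10), which act upstream of Trpm5, did not pass.

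Of 11 genes of leukotriene and prostaglandin synthesis, 2 rose and 0 fell (3 higher and 1 lower at an unadjusted p under 0.05). Over all genes 3.82% rose and 3.27% fell. Lta4h, the hydrolase that makes leukotriene B4, changed by -0.33 ± 0.09 (adjusted p = 0.0824 in limma) and was called lower with dim genes left out (0.0279) and with an intensity trend and robust eBayes (0.0146). The prostaglandin E synthase Ptges read 6.07, 5.49 and 5.31 in control and 6.53, 6.49 and 6.48 in N1ICD, a change of 0.88 ± 0.18 (limma adjusted p = 0.0263). The prostaglandin D synthase Hpgds, a tuft cell enzyme, rose by 0.49 ± 0.10 (adjusted p = 0.0224). Both calls were lost in each fit that left out an array other than control replicate 1 (adjusted p up to 0.0915 for Ptges and 0.0879 for Hpgds). Alox5, the lipoxygenase that Alox5ap serves, changed by 0.02 ± 0.09, and Ltc4s, which makes leukotriene C4, by -0.04 ± 0.10; neither passed.

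None of 4 genes that handle acetylcholine passed in limma, with 0 higher and 1 lower at an unadjusted p under 0.05. The vesicular transporter Slc18a3, which shares its locus with Chat, had the largest change (-0.33 ± 0.13, limma adjusted p = 0.186). Of 18 alarmin and immune-type signalling genes 1 rose and 1 fell, where 3.82% of all genes rose and 3.27% fell. The interleukin 13 receptor chain Il13ra1 rose 1.94-fold (0.96 ± 0.13, adjusted p = 0.00418), and the receptor kinase Kit fell by 1.15 ± 0.14 on the log2 scale (adjusted p = 0.00242), from 9.59, 9.48 and 9.61 in control to 8.46, 8.11 and 8.66 in N1ICD. Both held without any 1 array. The alarmin gene Il25 changed by 0.03 ± 0.15 and did not pass. None of 10 brush border and keratin genes passed (1 higher and 3 lower at an unadjusted p under 0.05, and 1 lower, Ezr, with an intensity trend and robust eBayes in limma), the largest change being that of Eps8 (-0.54 ± 0.21, adjusted p = 0.209).

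**Figure D3:**
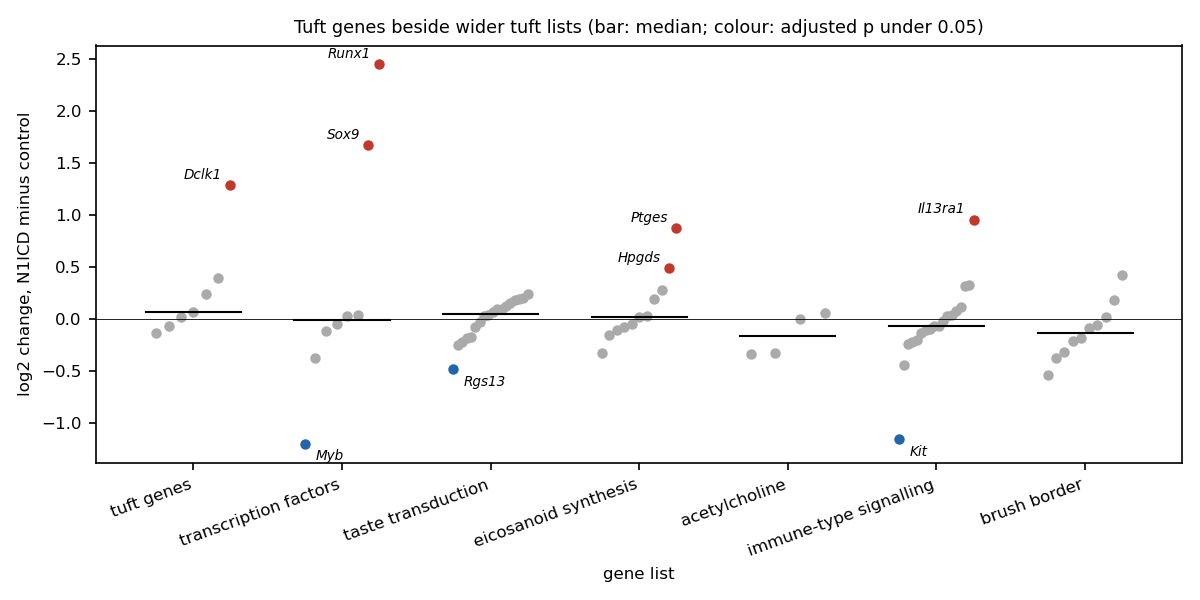
Log2 change, N1ICD minus control, of each measured gene in the tuft list and in the 6 wider lists; black bars are list medians, and red and blue points are higher and lower at an adjusted p under 0.05. Dclk1, Runx1, Sox9, Ptges, Hpgds and Il13ra1 are the red points and Myb, Kit and Rgs13 the blue ones.

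Several tuft genes are also made by blood cells, so markers of other cell types were read beside them. The samples are sorted cells of 1 line, and whether any of these markers came from other cells was not tested. Levels were summed over a list as linear RMA values. Such a sum follows the brightest genes of its list and does not describe each marker. The brightest were Pdgfra among the fibroblast markers (log2 8.97 in control and 8.24 in N1ICD) and Kdr and Tek among the endothelial ones. For the counts that follow, 3.82% of all genes rose and 3.27% fell. Of 8 myeloid markers, 1 was higher, Lyz2 (0.52, limma adjusted p = 0.0351, not called with any 1 array left out), and the sums were 337 to 359.7 in control and 336 to 358 in N1ICD. Of 4 platelet and megakaryocyte markers none passed (1 higher and 0 lower at an unadjusted p under 0.05), the largest change being that of Gp9 (0.37 ± 0.19, adjusted p = 0.35), with sums of 122 to 152 and 149 to 165. Of 4 mast cell markers none passed (1 higher and 1 lower at an unadjusted p under 0.05), Mcpt4 having the largest change (-0.37 ± 0.15, adjusted p = 0.213; called lower without N1ICD replicate 1, adjusted p = 0.0288), with sums of 45.5 to 48.6 and 39.4 to 51.1. Of 5 fibroblast markers Pdgfra fell (-0.74 ± 0.14, adjusted p = 0.0202, kept only where control replicate 1 or N1ICD replicate 3 was left out, adjusted p otherwise up to 0.0736), and the sums were 618 to 743 and 432 to 475. Dcn, the matrix proteoglycan decorin, changed by -0.65 ± 0.18 (adjusted p = 0.0752) and was called lower under equal medians (0.0404), with an intensity trend and robust eBayes in limma (0.0394) and with the replicate block (0.0359). Of 5 endothelial markers 2 rose, the growth factor receptors Kdr (3.04 ± 0.17) and Tek (1.06 ± 0.14), while Pecam1, Cdh5 and Vwf did not pass; the sums were 433 to 487 and 1240.3 to 1724. RMA gives no value of 0, so no marker can be called absent. Any relation of these markers to the tuft gene values was not tested.

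Of the 6 neuroendocrine markers measured, 3 rose and 1 fell, where 3.82% of all genes rose and 3.27% fell. Resp18 rose by 0.65 ± 0.11 and Chga by 0.64 ± 0.12 (adjusted p = 0.00893 and 0.0155 in limma), Ncam1 by 0.53 ± 0.11 (adjusted p = 0.0263), and Insm1, a neuroendocrine transcription factor, fell by 0.89 ± 0.15 on the log2 scale (adjusted p = 0.0101). With 1 array left out, Chga was still called only where that was control replicate 1 or N1ICD replicate 2 (adjusted p otherwise up to 0.0638), and Ncam1 only where it was control replicate 3 (adjusted p otherwise up to 0.0955).

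The 3 genes whose values over the 6 arrays, each taken from the gene's own control mean, lay closest to those of Dclk1 were Idh1, Lsamp and Sel1l. Their root mean square distances from Dclk1 were 0.055, 0.065 and 0.065 on the log2 scale. Idh1, the cytosolic isocitrate dehydrogenase, changed by 1.28, Lsamp, a neuronal adhesion protein, by 1.29, and Sel1l, a component of endoplasmic reticulum-associated degradation, by 1.32. For each, as for Dclk1, control replicate 3 was the highest control array and N1ICD replicate 1 the lowest N1ICD array. The 3 genes were picked by their distance over these same arrays, so a like change and array order follow from the choice.

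**Figure D4:**
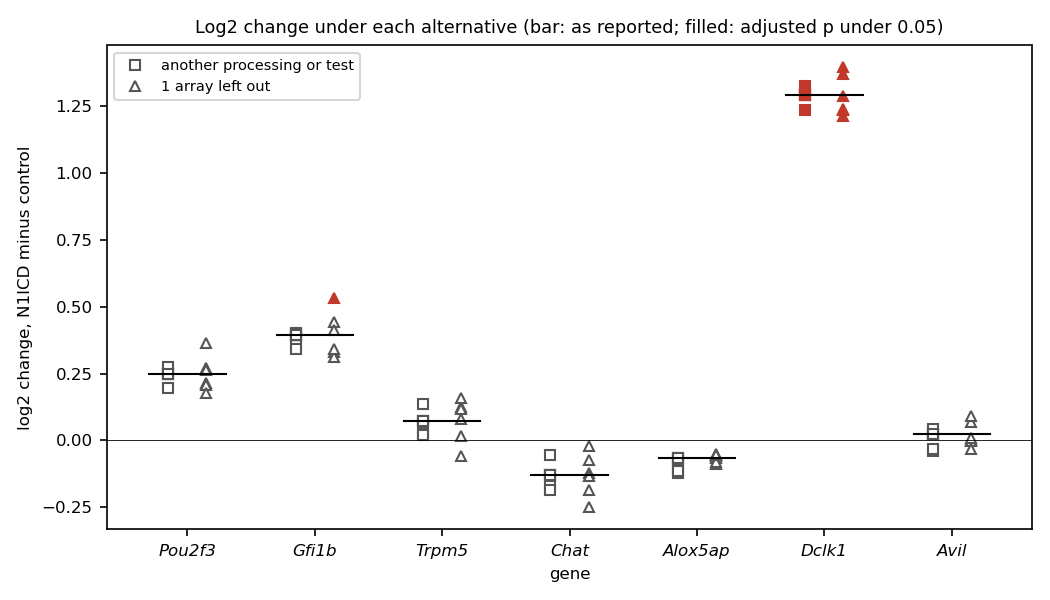
Log2 change, N1ICD minus control, of each tuft gene under other processing or tests (squares) and with 1 array left out (triangles); the bar is the value as reported and filled symbols have an adjusted p under 0.05. Dclk1 stays between 1.21 and 1.40 and is filled throughout, Gfi1b is filled at 0.53 only, and Trpm5 and Avil cross 0.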

How the data were processed

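The submitters' processing notes name RMA, with no version and no log base. The deposited values of 6 arrays were used unchanged and read as log2, RMA's own scale, by assumption, and no build is named in the labels. RMA draws arrays to a common distribution and compresses the changes of dim probe sets, and no change of total RNA per cell would show.

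Of 41345 probe sets, 23521 carried 1 symbol, 1814 several and 16010 none, which left 22180 genes after taking the brightest probe set of each; Alox5ap alone among the tuft genes had a second. Of 133 listed genes 123 were measured. Groups came from the labels. Every change is N1ICD minus control, from limma 3.58.1 in R 4.3.3 (lmFit, eBayes, two-sided, Benjamini-Hochberg over all genes, threshold 0.05); ± after a change is its SE, after a mean its SD. Single genes and gene pairs had exact permutation tests. The fit was tested on simulated data. Figures used matplotlib 3.10.9. Promoter windows are RefSeq's.

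Members and lists were chosen with earlier results of these data known. Named were the 8 tuft genes, Notch1, all relatives, up to 4 called genes of each list (or, with none called, its largest change), and the 3 genes most like Dclk1; further list genes were named after their values were seen. Alternatives were another quantile normalisation, equal medians, dim genes left out, means over probe sets, all probe sets, an intensity trend with robust eBayes, array weights, an adjusted p under 0.01, the replicate block and each array left out.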

Additional observations from a re-analysis of the deposited data

How the results depend on the processing

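The call of Dclk1, the 0 falls among the tuft genes and the missing calls of Pou2f3, Trpm5, Chat, Alox5ap and Avil held under every alternative run; leaving out genes with a mean under 5.66 removed Pou2f3, Trpm5, Chat and Alox5ap from the fit. With 1 array left out, 1 to 2 tuft genes rose, the second being Gfi1b without N1ICD replicate 3. In the same fits Trpm5 ranged from -0.057 to 0.16 and Avil from -0.031 to 0.092, with -0.0007 for Avil without control replicate 2. Avil was -0.039 after another quantile normalisation and -0.031 under equal medians. Over all genes, 668 changed at an adjusted p under 0.01, 805 with all probe sets tested and 823 to 1230 with 1 array left out, against 1574. Background signal was not measured, so a limit of detection for dim genes is not given. Plcg2 and Ptgis gained calls with dim genes left out (adjusted p = 0.0395 and 0.0461 in limma).

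The labels give both groups replicate numbers 1 to 3. Deviations from the group means correlated across genes at 0.23, 0.01 and 0.20 for the same numbers. Control replicates 1 and 3 correlated best with the N1ICD array of their own number. Control replicate 2 correlated at 0.06 with N1ICD replicate 3 and at 0.01 with N1ICD replicate 2. The labels do not say that equal numbers were paired. The main fit therefore left the number out, and the replicate block was run as an alternative. With the replicate block 1518 genes changed, 1330 of them among the 1574. Dclk1 kept its call (adjusted p = 0.00188), Gfi1b and Dcx had adjusted p-values of 0.0721 and 0.0627, Dclk2 and Ncam1 lost their calls, and Dcn gained one (adjusted p = 0.0359).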

Other observations

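Among the N1ICD arrays, replicate 3 gave the lowest value for Pou2f3, Gfi1b, Trpm5 and Alox5ap and the highest for Dclk1 and Avil. Among the control arrays, replicate 1 gave the highest value for Pou2f3, Gfi1b, Trpm5 and Chat. Over all genes too, N1ICD replicate 3 had the lowest median of the N1ICD arrays (6.190, against 6.238 and 6.227). Control replicate 1 had the highest median of the control arrays (6.195, against 6.158 and 6.139). The relation between these arrays and the genes was not tested.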
